A study of Mus musculus with 12 samples.

Results

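Whether the RNA change that goes with targeting Id2 differed between natural killer (NK) cells with and without targeted Tcf7 was measured across all 12 libraries of the series, 3 in each of 4 genotypes. For each gene the interaction was computed as (DKO minus Tcf1KO) minus (Id2KO minus Ctrl), from group means on the log2(FPKM + 1) scale, where FPKM counts sequenced fragments relative to the length of the gene and the size of the library. Of 37991 genes listed, the 12384 that reached an FPKM of 1 in 3 or more libraries entered the test. An interaction of 0 means that the Id2 difference was equal on both Tcf7 backgrounds, a positive one that it was higher, or less negative, where Tcf7 was also targeted.

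The cells were bone marrow lymphocytes of C57Bl/6 mice, sorted by the surface molecules NK1.1 and CD49b. DKO mice carried Ncr1Cre with floxed Id2 and floxed Tcf7, Tcf1KO mice Ncr1Cre with floxed Tcf7, and Id2KO mice Ncr1Cre with floxed Id2. Ctrl mice carried no Cre; the series text gives them floxed Id2 alone or together with floxed Tcf7, while the treatment protocol gives floxed Id2 only. The libraries are called independent, but the labels do not say how many animals each holds, so the p-values here reflect variation among samples that may be technical. Ncr1Cre acts in cells that express Ncr1, the gene of the activating receptor NKp46, so recombination depends on Ncr1 having been switched on. Because Ctrl is the only genotype without Cre, the presence of Cre does not cancel out of the interaction and cannot be told apart from it.

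Id2 encodes a helix-loop-helix protein without a DNA-binding domain that pairs with E proteins and keeps them off E-box sequences. Tcf7 encodes TCF-1, a high mobility group transcription factor of early lymphoid cells that partners with beta-catenin and Groucho-type corepressors. Both have known roles in NK cells, where Id2 is needed for maturation and TCF-1 marks immature stages.

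The reads recovered from the FPKM steps ran between 13975523 and 20208160 per library, and mitochondrial ribosomal RNA took 23.6% to 32.4% of them. All 10 NK-defining markers, among them Ncr1, Eomes, Tbx21 and Klrb1c (NK1.1), were above 0 in every library. Pairs of libraries correlated at 0.796 to 0.92 across genes. Xist was at or below 0.129 FPKM in 1 library of each genotype and between 124 and 318 FPKM in the others. The low library was library 1 in DKO, Tcf1KO and Ctrl and library 2 in Id2KO. The 3 libraries that limma's array weights placed farthest from their group were Id2KO library 3, DKO library 3 and Ctrl library 2, with weights of 0.554 to 0.59.

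The targeted genes were read first. Id2 RNA (ENSMUSG00000020644, chr12:25093799-25097140, minus strand, GRCm38) was 48.8, 41.2 and 36.8 FPKM in DKO libraries, 114, 102 and 126 FPKM in Tcf1KO, 17.8, 17.1 and 19.2 FPKM in Id2KO, and 124, 163 and 170.0 FPKM in Ctrl. The 4 genotypes did not overlap except Tcf1KO with Ctrl, and DKO retained more Id2 RNA than Id2KO. The Id2 difference was -1.41 ± 0.16 (SE) with Tcf7 targeted, against -3.0 ± 0.16 with Tcf7 not targeted, and the interaction was 1.58 ± 0.23 with a limma adjusted p = 0.085. Differences between DKO and Id2KO in other genes therefore stand beside unequal amounts of remaining Id2 RNA, whose part in them was not tested. Tcf7 RNA (chr11:52252371-52283014, minus strand) was 53.9, 60.0 and 73.3 FPKM in DKO, 29.6, 37.3 and 38.0 FPKM in Tcf1KO, 81.5, 92.1 and 80.9 FPKM in Id2KO, and 37.7, 38.6 and 46.5 FPKM in Ctrl. Tcf7 RNA differed with Id2 on both backgrounds, past the threshold on one, by 0.82 ± 0.16 in DKO against Tcf1KO (adjusted p = 0.203) and by 1.04 ± 0.16 in Id2KO against Ctrl (adjusted p = 0.0279), with an interaction of -0.22 ± 0.22 (adjusted p = 0.973). Tcf1KO and Ctrl overlapped in Tcf7 RNA. A whole-gene value also covers exons outside a floxed segment, so it does not check the Tcf1KO and DKO labels.

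No gene passed an adjusted p of 0.05 in limma's two-sided test of the interaction, 0 of 12384 (0%), and the smallest adjusted p was 0.085. At an unadjusted p under 0.05 there were 735 genes (5.94%), 290 positive (2.34%) and 445 negative (3.59%), and voom on the recovered reads likewise called 0. The interaction adds the error of 4 group means, with a median SE of 0.39, against 0.276 for a difference of 2 groups. The same fit called 7 genes (0.0565%) in DKO against Tcf1KO, 22 (0.178%) in Id2KO against Ctrl, 15 (0.121%) in DKO against Id2KO and 0 (0%) in Tcf1KO against Ctrl, where 594 had an unadjusted p under 0.05 (4.8%). The first of these counts fell to 0 without DKO library 3, Tcf1KO library 1 or Tcf1KO library 3, to 1 without Tcf1KO library 2 and to 2 without DKO library 2. The second was 13 without Id2KO library 1 and 14 without Id2KO library 2. The 7 genes called in DKO against Tcf1KO were Id2, Pbk, Klrg1, Cdk1 and the short RNA genes Gm23613, Snord110 and n-R5s39, which rest on few reads. Gm23613 had 65, 13 and 14 reads in DKO and 0 in every Tcf1KO library.

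**Figure D1:**
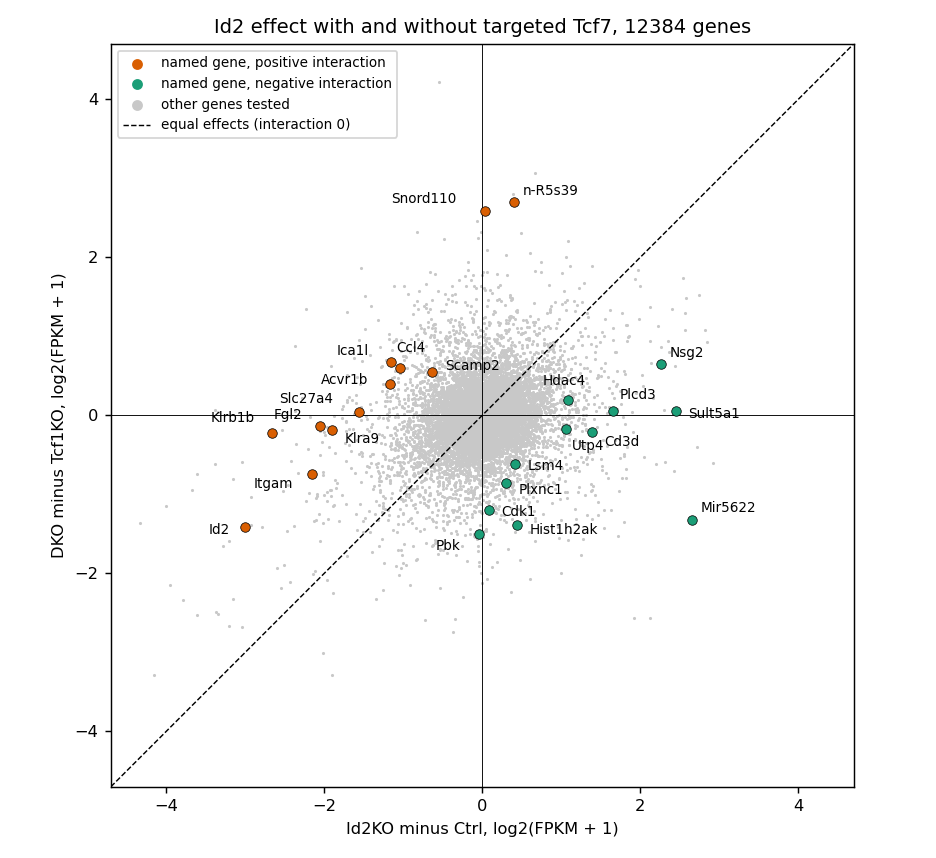
Id2 difference of each of 12384 genes with Tcf7 targeted (DKO minus Tcf1KO, vertical axis) against that with Tcf7 not targeted (Id2KO minus Ctrl, horizontal axis), both in log2(FPKM + 1), with the 24 genes of smallest interaction p in colour. Genes on the dashed line have equal differences; Klrb1b, Fgl2 and Itgam lie far to the left of it, and Pbk and Cdk1 lie below it near a horizontal value of 0.

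The 12 genes of smallest p in each direction, with predicted genes, pseudogenes and receptor segments passed over, are given as descriptions, since none passed the test. In 22 of these 24 genes the genotype farthest from the rest had all 3 libraries outside the other 9. In some, such as Nsg2, another genotype did so too. That genotype was Id2KO for 8 of the 12 positive and 3 of the 12 negative genes, DKO for 1 positive and 4 negative genes, Ctrl for 1 positive and 4 negative genes, and Tcf1KO for 1 positive gene. Over all genes tested, such a pattern held for Id2KO in 3.17%, DKO in 1.97%, Ctrl in 1.34% and Tcf1KO in 0.912%, and nothing is read from the higher share among genes chosen by the interaction.

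Id2KO alone stood apart for a set of NK surface and effector genes that were low there and higher in DKO. Klrb1b encodes an inhibitory lectin-like receptor of the NKR-P1 family (ENSMUSG00000079298, chr6:128813706-128826331, minus strand). Its RNA was 21.7, 27.3 and 21.6 FPKM in DKO, 27.1, 22.1 and 34.2 FPKM in Tcf1KO, 6.25, 5.07 and 2.58 FPKM in Id2KO, and 26, 35.6 and 38.7 FPKM in Ctrl. Every Id2KO library lay below every other library, while DKO overlapped Tcf1KO and Ctrl. Klrb1b fell by 2.66 ± 0.27 in Id2KO against Ctrl (adjusted p = 0.00185), the difference between DKO and Tcf1KO was -0.22 ± 0.27 (adjusted p = 0.936), and the interaction was 2.44 ± 0.38 (adjusted p = 0.107). Read along the other gene, Klrb1b was 2.18 ± 0.27 higher in DKO than in Id2KO (adjusted p = 0.0121).

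Fgl2, a secreted fibrinogen-like immune regulator (chr5:21372642-21378374, plus strand), had the same shape. It measured 49.97, 73.4 and 53.9 FPKM in DKO, 61.6, 48.6 and 89.5 FPKM in Tcf1KO, 10.7, 6.83 and 8.75 FPKM in Id2KO, and 36.6, 37.4 and 42.8 FPKM in Ctrl. The Id2KO libraries were again the lowest 3 of 12, and both DKO and Tcf1KO lay above Ctrl. Fgl2 fell in Id2KO against Ctrl by 2.05 ± 0.24 (adjusted p = 0.00454), while DKO minus Tcf1KO was -0.14 ± 0.24 (adjusted p = 0.952) and the interaction was 1.91 ± 0.33 (adjusted p = 0.164). DKO exceeded Id2KO by 2.62 ± 0.24 (adjusted p = 0.00361).

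Itgam, the CD11b chain of a leukocyte integrin that NK cells acquire as they mature (chr7:128062640-128118491, plus strand), was intermediate in DKO. Its RNA was 4.29, 4.93 and 4.14 FPKM in DKO, 10.7, 7.39 and 6.65 FPKM in Tcf1KO, 1.14, 1.65 and 1.0 FPKM in Id2KO, and 9.69, 8.77 and 8.76 FPKM in Ctrl. DKO overlapped neither Tcf1KO nor Id2KO. The Id2 difference was -0.74 ± 0.19 with Tcf7 targeted (adjusted p = 0.347) and -2.16 ± 0.19 with Tcf7 not targeted (adjusted p = 0.000974), with an interaction of 1.43 ± 0.27 (adjusted p = 0.234).

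The neighbourhoods of transcription start sites are shown for 4 of these genes, because Id2 acts through E proteins, which bind E-boxes, and TCF-1 binds a motif with the core CTTTGA. Sequences are RefSeq windows of 300 bases on GRCm38.p6, from 250 bases before to 50 after a start site, read 5′ to 3′ on the gene's strand. Capitals mark matches to the E-box CANNTG or to CTTTGA on either strand (TCAAAG), and no match overlapped another in these windows. For Klrb1b, which has 2 windows in RefSeq, 1 is shown (chr6:128826266-128826565, minus strand), with Fgl2 (chr5:21372423-21372722, plus strand), Sult5a1 (chr8:123158231-123158530, minus strand) and Cd3d (chr9:44981536-44981835, plus strand). Of 8 genes looked for, 7 were matched.
Klrb1b: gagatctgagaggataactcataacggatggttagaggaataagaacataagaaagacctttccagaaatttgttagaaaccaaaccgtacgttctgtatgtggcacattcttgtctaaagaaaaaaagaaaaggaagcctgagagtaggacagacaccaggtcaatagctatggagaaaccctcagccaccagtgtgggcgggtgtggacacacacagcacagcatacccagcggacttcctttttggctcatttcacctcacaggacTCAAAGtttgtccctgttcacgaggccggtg
Fgl2: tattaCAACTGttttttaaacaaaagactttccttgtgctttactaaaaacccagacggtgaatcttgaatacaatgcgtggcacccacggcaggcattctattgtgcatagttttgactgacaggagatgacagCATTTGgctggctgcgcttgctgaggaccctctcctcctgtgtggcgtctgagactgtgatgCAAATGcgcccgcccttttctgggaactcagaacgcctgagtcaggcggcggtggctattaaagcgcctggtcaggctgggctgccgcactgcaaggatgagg
Sult5a1: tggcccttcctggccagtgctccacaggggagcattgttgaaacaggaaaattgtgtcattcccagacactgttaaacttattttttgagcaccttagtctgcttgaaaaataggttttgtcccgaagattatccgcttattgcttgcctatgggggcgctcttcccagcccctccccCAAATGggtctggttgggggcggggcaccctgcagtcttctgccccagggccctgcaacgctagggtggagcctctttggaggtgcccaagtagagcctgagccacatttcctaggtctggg
Cd3d: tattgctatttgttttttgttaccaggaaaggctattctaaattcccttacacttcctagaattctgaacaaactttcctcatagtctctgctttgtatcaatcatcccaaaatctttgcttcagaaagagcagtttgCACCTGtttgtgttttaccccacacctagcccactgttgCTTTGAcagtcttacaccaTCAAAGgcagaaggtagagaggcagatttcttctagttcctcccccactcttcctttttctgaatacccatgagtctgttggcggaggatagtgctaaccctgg
The Klrb1b window held 0 E-boxes and 1 TCF core, the Fgl2 window 3 E-boxes and 0 TCF cores, the Sult5a1 window 1 E-box and 0 TCF cores, and the Cd3d window 1 E-box and 2 TCF cores. In windows not shown, Itgam had 1 E-box and 2 TCF cores, Nsg2 (1 of its 2 windows) 4 E-boxes and 0 TCF cores, and Cdk1 1 of each. Among 32851 RefSeq windows of the same length, 72.3% held an E-box and 16.0% held a TCF core. The matches are descriptions of letters and show no binding.

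The remaining positive genes with low Id2KO values were less far apart. Klra9, a gene of the Ly49 receptor family whose near-identical relatives may share reads with it, had 18.0, 24.1 and 15.8 FPKM in DKO, 21.0, 22.7 and 22.0 FPKM in Tcf1KO, 13.5, 8.38 and 5.57 FPKM in Id2KO, and 33.2, 44.2 and 29.2 FPKM in Ctrl. Klra9 was highest in Ctrl and lowest in Id2KO, with DKO and Tcf1KO between them. Ccl4, an inflammatory chemokine, had 266, 158 and 181 FPKM in DKO, 159, 97.5 and 141 FPKM in Tcf1KO, 63.5, 59.5 and 87.8 FPKM in Id2KO, and 132, 123 and 182 FPKM in Ctrl. Their interactions were 1.71 ± 0.38 (adjusted p = 0.508) for Klra9 and 1.64 ± 0.36 (adjusted p = 0.491) for Ccl4. Acvr1b, an activin type I receptor, averaged 5.86 ± 1.56 FPKM in DKO, 4.13 ± 0.46 in Tcf1KO, 1.85 ± 0.59 in Id2KO and 5.59 ± 2.36 in Ctrl (SD, n = 3 each), with an interaction of 1.57 ± 0.38 (adjusted p = 0.667). Scamp2, a secretory membrane protein, differed in opposite directions on the 2 backgrounds, by 0.55 ± 0.13 with Tcf7 targeted (adjusted p = 0.319) and by -0.63 ± 0.13 with Tcf7 not targeted (adjusted p = 0.133).

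Sult5a1, a member of the cytosolic sulfotransferase family (ENSMUSG00000000739, chr8:123140192-123158315, minus strand), was seen almost entirely in Id2KO. It measured 0.126, 0 and 0 FPKM in DKO, was listed at 0 in all 3 Tcf1KO libraries, and measured 4.02, 6.47 and 3.59 FPKM in Id2KO against 0.0519, 0 and 0 FPKM in Ctrl. These values stand for 9, 0 and 0 reads in DKO, 272, 437 and 297 reads in Id2KO, and 4, 0 and 0 reads in Ctrl. Sult5a1 rose in Id2KO against Ctrl by 2.45 ± 0.24 (adjusted p = 0.00141), and DKO lay below Id2KO by a difference of -2.42 ± 0.24 (adjusted p = 0.00402). Its interaction of -2.39 ± 0.33 had an adjusted p = 0.085, which became 0.0334 without the variance trend and lay between 0.0334 and 0.842 over the alternatives. Plcd3, a phospholipase C (chr11:103070304-103101658, minus strand), had the same shape, with 0.185, 0.0390 and 0 FPKM in DKO, 0.0657, 0.0248 and 0.0228 FPKM in Tcf1KO, 3.48, 4.63 and 2.23 FPKM in Id2KO, and 0.190, 0.407 and 0.566 FPKM in Ctrl. Plcd3 rose in Id2KO against Ctrl by 1.65 ± 0.25 (adjusted p = 0.0279), with a DKO minus Tcf1KO difference of 0.05 ± 0.25 (adjusted p = 0.987) and an interaction of -1.61 ± 0.36 (adjusted p = 0.491). Sult5a1 and Plcd3 reached an FPKM of 1 only in Id2KO, so they entered the test only through the genotype where they were high. Their p-values are therefore given as descriptions.

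**Figure D2:**
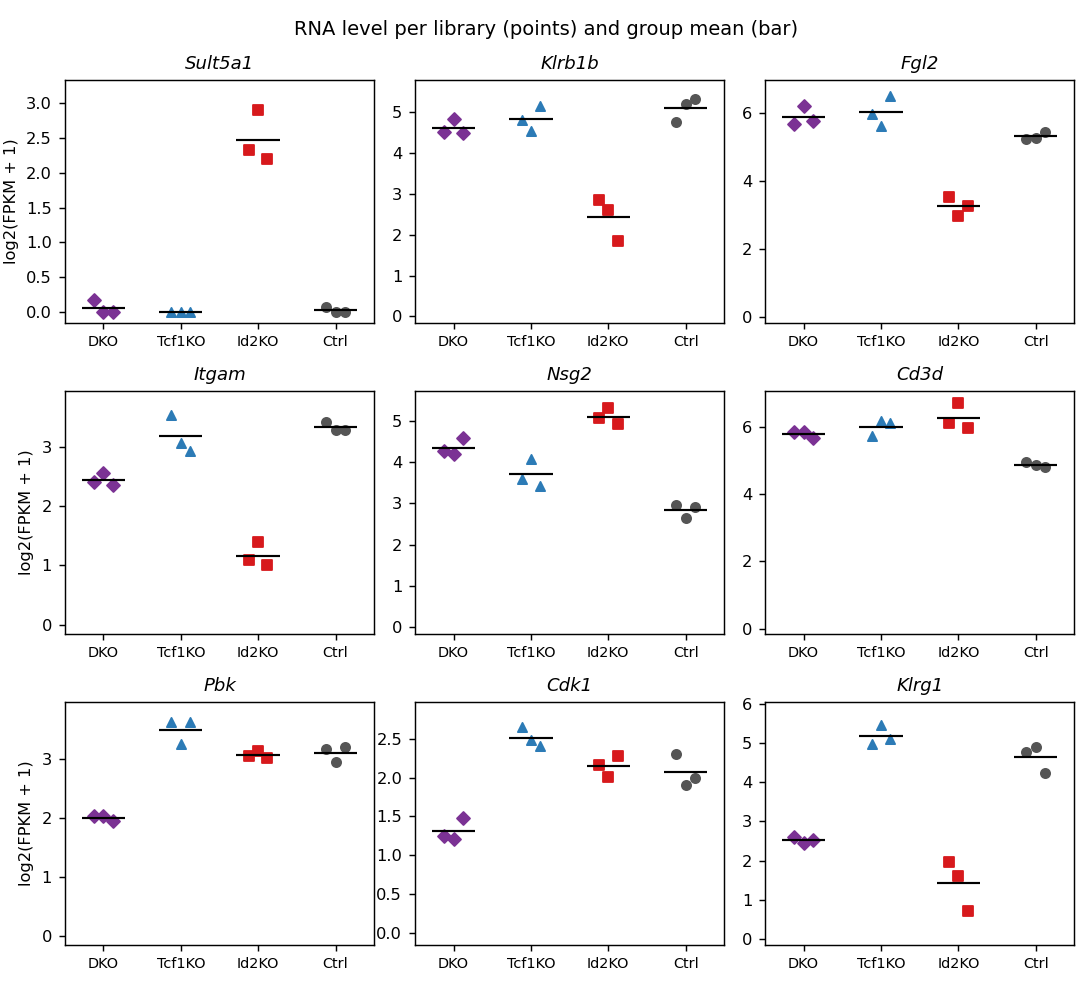
RNA level in log2(FPKM + 1) of 9 genes in each library (points) with the group mean (bar), by genotype. Id2KO stands apart in Sult5a1, Klrb1b, Fgl2 and Itgam, Ctrl in Cd3d, and DKO in Pbk and Cdk1, whereas Klrg1 is low in both DKO and Id2KO.

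For Cd3d, Nsg2, Hdac4 and Utp4 it was Ctrl that lay farthest apart, so the negative interaction of these genes also turns on the only genotype without Cre. For Nsg2, Id2KO lay apart as well, above every library of the other genotypes. Cd3d, the delta chain of the CD3 complex (ENSMUSG00000032094, chr9:44981786-44987339, plus strand), had 56.6, 56.6 and 50.03 FPKM in DKO, 51.6, 70.6 and 68.3 FPKM in Tcf1KO, 67.2, 103 and 61.5 FPKM in Id2KO, and 29.8, 28 and 26.6 FPKM in Ctrl. All 9 libraries with Cre exceeded all 3 Ctrl libraries, and the genotypes with Cre overlapped one another in part. The Id2 difference of Cd3d was -0.21 ± 0.20 with Tcf7 targeted (adjusted p = 0.913) and 1.39 ± 0.20 with Tcf7 not targeted (adjusted p = 0.0183), giving an interaction of -1.60 ± 0.28 (adjusted p = 0.164). Ncr1 itself, the gene that drives Cre, had Ctrl apart on the high side, with 62.4, 99.1 and 72.9 FPKM in DKO, 60.3, 63.7 and 70.4 FPKM in Tcf1KO, 138, 148 and 85.8 FPKM in Id2KO, and 203, 168 and 204 FPKM in Ctrl. Unlike that of Cd3d, its interaction was positive, at 0.90 ± 0.31 (adjusted p = 0.831).

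Nsg2, an endosomal protein gene best known from neurons (chr11:32000463-32059202, plus strand), followed an order rather than an on and off shape. It had 18.3, 17.3 and 22.9 FPKM in DKO, 11.1, 15.9 and 9.71 FPKM in Tcf1KO, 32.4, 38.5 and 29.2 FPKM in Id2KO, and 6.80, 5.22 and 6.47 FPKM in Ctrl. No genotypes overlapped. The Id2 difference was 0.65 ± 0.20 with Tcf7 targeted (adjusted p = 0.457) and 2.26 ± 0.20 with Tcf7 not targeted (adjusted p = 0.000974), for an interaction of -1.61 ± 0.28 (adjusted p = 0.164). Hdac4, a class IIa histone deacetylase, averaged 7.59 ± 0.77 FPKM in DKO, 6.47 ± 0.19 in Tcf1KO, 8.88 ± 1.03 in Id2KO and 3.64 ± 0.54 in Ctrl (SD, n = 3 each). Utp4, a factor of ribosome assembly, showed its lowest 3 values in Ctrl, with an interaction of -1.23 ± 0.29 (adjusted p = 0.592).

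DKO lay apart for genes of cell division. Pbk, a kinase active in mitosis (chr14:65805837-65817822, plus strand), had 3.07, 3.08 and 2.85 FPKM in DKO, 11.3, 8.47 and 11.4 FPKM in Tcf1KO, 7.26, 7.79 and 7.04 FPKM in Id2KO, and 7.94, 6.75 and 8.22 FPKM in Ctrl. The DKO libraries were the lowest 3, the Tcf1KO libraries the highest 3, and Id2KO overlapped Ctrl. Pbk fell in DKO against Tcf1KO by 1.5 ± 0.15 (adjusted p = 0.0109), its difference between Id2KO and Ctrl was -0.04 ± 0.15 (adjusted p = 0.964), and the interaction was -1.45 ± 0.22 (adjusted p = 0.085). Cdk1, the kinase that drives entry into mitosis (chr10:69335146-69352938, minus strand), had 1.38, 1.32 and 1.78 FPKM in DKO, 5.30, 4.59 and 4.29 FPKM in Tcf1KO, 3.49, 3.01 and 3.85 FPKM in Id2KO, and 3.94, 2.74 and 2.97 FPKM in Ctrl. As for Pbk, DKO was lowest and Tcf1KO highest, and Id2KO overlapped Ctrl. Cdk1 fell in DKO against Tcf1KO by 1.2 ± 0.17 (adjusted p = 0.0484), against a difference of 0.08 ± 0.17 between Id2KO and Ctrl (adjusted p = 0.926).

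Plxnc1, a semaphorin receptor, and Lsm4, an RNA-binding protein of splicing and decay particles, were also lowest in DKO. Plxnc1 averaged 6.09 ± 1.46 FPKM in DKO, 11.7 ± 0.40 in Tcf1KO, 17.6 ± 2.16 in Id2KO and 14.0 ± 1.12 in Ctrl (SD, n = 3 each), and fell in DKO against Id2KO by 1.40 ± 0.17 (adjusted p = 0.0106). Lsm4 fell in the same comparison by 0.98 ± 0.15 (adjusted p = 0.0369), with an interaction of -1.03 ± 0.21 (adjusted p = 0.322). Hist1h2ak, a histone H2A gene whose copies may share reads, averaged 75.0 ± 22.2 FPKM in DKO, 195 ± 36.7 in Tcf1KO, 171 ± 39.0 in Id2KO and 130 ± 51.1 in Ctrl. The 3 short RNA genes among the 24 rest on few reads: Snord110 had 13, 19 and 17 reads in DKO and 1, 3 and 3 in Tcf1KO, n-R5s39 had 14, 7 and 7 reads in DKO and 0 in every Tcf1KO and Ctrl library, and Mir5622 had at most 15 reads in any library.

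The Id2 differences on the 2 backgrounds share no library, so genes called on one were read on the other. Both use the spread of each gene estimated over all 12 libraries, so their p-values are not independent. Of the 22 genes called in Id2KO against Ctrl, 19 had the same sign in DKO against Tcf1KO, 11 of them at an unadjusted p under 0.05 (6.73% of all genes) and 2 past the adjusted threshold. All 22 were smaller there, 16 at less than 50% of the size, and the median size was 0.48 in DKO against Tcf1KO and 2.11 in Id2KO against Ctrl. A gene chosen for passing in Id2KO against Ctrl has its size there favoured by that choice, so the shrinkage is given as a description. Without Id2, the targeted gene itself, the other 21 had a median size of 0.30 in DKO against Tcf1KO and 2.05 in Id2KO against Ctrl, and 1 was called on both backgrounds. The 2 genes called on both backgrounds were Id2 and Klrg1. Klrg1, an inhibitory receptor of mature NK cells, had 5.05, 4.43 and 4.71 FPKM in DKO, 30.2, 43.2 and 33.6 FPKM in Tcf1KO, 2.88, 2.04 and 0.650 FPKM in Id2KO, and 26.1, 28.9 and 17.8 FPKM in Ctrl. Klrg1 fell by 2.66 ± 0.29 with Tcf7 targeted (adjusted p = 0.0109) and by 3.20 ± 0.29 with Tcf7 not targeted (adjusted p = 0.00109), and its interaction was 0.54 ± 0.42 (adjusted p = 0.944).

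Other genes called in Id2KO against Ctrl did not pass in DKO against Tcf1KO, and their sizes there varied. S1pr5, a sphingosine-1-phosphate receptor for exit from the bone marrow, had 1.95, 3.55 and 1.43 FPKM in DKO, 7.40, 8.2 and 12 FPKM in Tcf1KO, 1.41, 0.395 and 0.322 FPKM in Id2KO, and 9.50, 23.4 and 15 FPKM in Ctrl. Both genotypes with targeted Id2 lay below both without it, by -1.65 ± 0.36 in DKO against Tcf1KO (adjusted p = 0.251) and -3.28 ± 0.36 in Id2KO against Ctrl (adjusted p = 0.00298). Id3, an Id gene that E proteins can induce, had 10.3, 9.72 and 15.4 FPKM in DKO, 2.45, 4.72 and 5.78 FPKM in Tcf1KO, 11.7, 25.8 and 16.0 FPKM in Id2KO, and 1.70, 2.93 and 1.66 FPKM in Ctrl. Here both genotypes with targeted Id2 lay above both without it. The Id2 difference of Id3 was 1.3 ± 0.33 with Tcf7 targeted (adjusted p = 0.347) and 2.56 ± 0.33 with Tcf7 not targeted (adjusted p = 0.0102). Of the 7 genes called in DKO against Tcf1KO, 5 had the same sign in Id2KO against Ctrl and 2 were called there. These 7 include the short RNA genes Gm23613, Snord110 and n-R5s39, which rest on few reads. Across all 12384 genes the 2 Id2 differences correlated at Pearson 0.24 and Spearman 0.19, and 55.8% had the same sign, as a description over genes that are not independent.

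Groups of genes were read by their members' interactions, beside a median of 0.00 over all genes, 50.2% of which were above 0. Of 27 tested mature NK markers, 24 had a positive interaction, 10 of them at an unadjusted p under 0.05 (37.0%, against 5.94% of all genes), and the median was 0.68. The median Id2 difference of these markers was -0.24 in DKO against Tcf1KO and -1.04 in Id2KO against Ctrl. Their mean log2(FPKM + 1) level was 4.68, 4.75 and 4.43 in DKO, 5.15, 5.09 and 5.14 in Tcf1KO, 3.92, 4.02 and 3.82 in Id2KO, and 5.08, 5.25 and 5.12 in Ctrl. DKO lay between Id2KO and the other 2 genotypes with no overlap. Members with a negative interaction included Cx3cr1, a chemokine receptor, at -0.93 and Tbx21, the transcription factor T-bet, at -0.29. The median interaction was 0.43 without Ctrl library 2 and 0.80 without the 3 libraries of lowest weight.

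Among effector genes, 16 of 20 cytotoxic granule genes had a positive interaction with a median of 0.22. Of the 20, 2 had an unadjusted p under 0.05 (10%, against 5.94% of all genes). These were Gzma and Prf1, which are also on the list of mature NK markers. The mature NK list shares 3 members with the granule list and 3 with the chemokine and cytokine list, so the lists are not separate readings. Gzma, a granule protease, had 710, 1132 and 657 FPKM in DKO, 764, 689 and 957 FPKM in Tcf1KO, 470, 357 and 211 FPKM in Id2KO, and 702, 807 and 761 FPKM in Ctrl. Prf1, the pore-forming perforin, had 31.2, 58.2 and 23.8 FPKM in DKO, 42.7, 48.9 and 57.9 FPKM in Tcf1KO, 22.6, 25.7 and 24.1 FPKM in Id2KO, and 66.2, 68.6 and 79.1 FPKM in Ctrl. Gzma was lowest in Id2KO without overlap, whereas Prf1 overlapped between DKO and Id2KO, and their interactions were 1.22 ± 0.40 and 1.04 ± 0.37 (adjusted p = 0.831 each). Chemokines and cytokines had a median of 0.43, with 9 of 14 positive, among them Ccl3, an inflammatory chemokine, at 1.61 ± 0.70 and Lta, the lymphotoxin alpha gene, at 1.54 ± 0.63 (adjusted p = 0.831 each). Ccl3 leaned on DKO library 1, with 1269, 408 and 292 FPKM in DKO. Its interaction ran between 0.98 and 2.04 without single libraries.

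Receptor families did not share a sign. Of 15 Ly49 and NKR-P1 genes, 9 had a positive and 6 a negative interaction, with a median of 0.07, and Klra6 at -0.67 ± 0.39 stood opposite to Klra9 (adjusted p = 0.871). Of 13 integrin chains, 12 were positive with a median of 0.29, and the exception was Itgb3, the beta chain of the vitronectin receptor. Itgb3 had 1.68, 1.5 and 0.987 FPKM in DKO, 3.75, 4.0 and 1.21 FPKM in Tcf1KO, 6.42, 6.85 and 5.89 FPKM in Id2KO, and 3.04, 3.02 and 1.19 FPKM in Ctrl. Id2KO was highest without overlap and the other genotypes overlapped, with an interaction of -1.83 ± 0.47 (adjusted p = 0.700). Of 18 genes typical of the related type 1 innate lymphoid cells (ILC1), 15 were positive with a median of 0.63. Of the 18, 4 had an unadjusted p under 0.05 (22.2%, against 5.94% of all genes). The ILC1 median was 0.39 without Id2KO library 2 and 0.23 with the filter at FPKM 5. Itga1, the CD49a chain on this list, had 7.30, 5.41 and 8.65 FPKM in DKO, 6.67, 5.30 and 6.88 FPKM in Tcf1KO, 1.04, 0.983 and 1.02 FPKM in Id2KO, and 2.77, 2.67 and 1.48 FPKM in Ctrl. Itga1 overlapped between DKO and Tcf1KO, both above Ctrl, and Id2KO was lowest; it was 1.99 ± 0.21 higher in DKO than in Id2KO (adjusted p = 0.0069).

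Genes close to the targeted pathways had medians near 0, as did MHC class I presentation genes and glycolysis genes (0.02 each). The Id and E protein genes had a median of 0.04 over 5 tested members, which ran between -0.75 and 0.11 over the alternatives. Among them, Id3 was at -1.26 ± 0.47 (adjusted p = 0.831), and the E protein genes Tcf3 at 0.11 ± 0.23 and Tcf12 at -0.24 ± 0.19 (adjusted p = 0.986 and 0.946). TCF-1 partners and Wnt target genes had a median of 0.04 over 10, and Axin2, a feedback inhibitor that beta-catenin and TCF factors induce, was at 0.89 ± 0.36 (adjusted p = 0.831). E protein target genes had a median of 0.10 over 15, 10 of them positive. Of 11 genes of the T cell receptor complex, 9 were negative with a median of -0.22, but apart from Cd3d none had an unadjusted p under 0.05. NK cells transcribe several CD3 and T cell receptor genes without a receptor at the surface, and T cells in the sort cannot be told apart from this in bulk RNA.

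Cell cycle genes leaned the other way. Of 40 tested, 37 had a negative interaction and the median was -0.65, 9 at an unadjusted p under 0.05 (22.5%). In DKO against Tcf1KO, 28 of the 40 were lower at an unadjusted p under 0.05 (3.77% of all genes were), and 1 of 40 was in Id2KO against Ctrl (4.17%). The median Id2 difference of the list was -0.80 with Tcf7 targeted and -0.17 with Tcf7 not targeted. The mean log2(FPKM + 1) level was 3.09, 2.97 and 2.64 in DKO, 3.99, 3.67 and 3.43 in Tcf1KO, 3.62, 3.22 and 3.32 in Id2KO, and 3.87, 3.46 and 3.29 in Ctrl. DKO lay below all other libraries, and the other 3 genotypes overlapped. Ccna2, cyclin A2 of S phase and mitosis, had 10.8, 8.35 and 5.76 FPKM in DKO, 33.4, 27.7 and 16.1 FPKM in Tcf1KO, 19.4, 13.1 and 16.6 FPKM in Id2KO, and 26.5, 14.8 and 13.6 FPKM in Ctrl, with an interaction of -1.39 ± 0.46 (adjusted p = 0.831).

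Ribosomal protein genes also had negative interactions, 40 of 43 with a median of -0.37, but from the other background. Of the 43, 5 were higher at an unadjusted p under 0.05 in DKO against Tcf1KO (2.96% of all genes) and 39 in Id2KO against Ctrl (5.53%). Their mean log2(FPKM + 1) level was 7.21, 7.22 and 7.14 in DKO, 6.87, 7.07 and 7.11 in Tcf1KO, 7.44, 7.80 and 7.45 in Id2KO, and 6.82, 7.14 and 7.13 in Ctrl, so that Id2KO alone stood above the rest. The median interaction of this list was -0.24 without Ctrl library 1. Of 34 oxidative phosphorylation genes, 26 were negative with a median of -0.26. Interferon-stimulated genes had a median of -0.25, 21 of 27 negative, and Bst2 (tetherin) had 4.11, 6.55 and 1.56 FPKM in DKO, 16.7, 24.2 and 11 FPKM in Tcf1KO, 18.2, 30.3 and 20.9 FPKM in Id2KO, and 17.9, 39.5 and 12.3 FPKM in Ctrl. DKO was lowest for Bst2 without overlap, and the interaction was -2.04 ± 0.67 (adjusted p = 0.831). Immediate early genes, which are induced within minutes of a stimulus, had 21 of 23 positive with a median of 0.71. Of the 23, 1 had an unadjusted p under 0.05 (4.3%, against 5.94% of all genes). The median of this list lay between 0.20 (without Ctrl library 3) and 1.22 (without DKO library 2) when single libraries were left out.

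**Figure D3:**
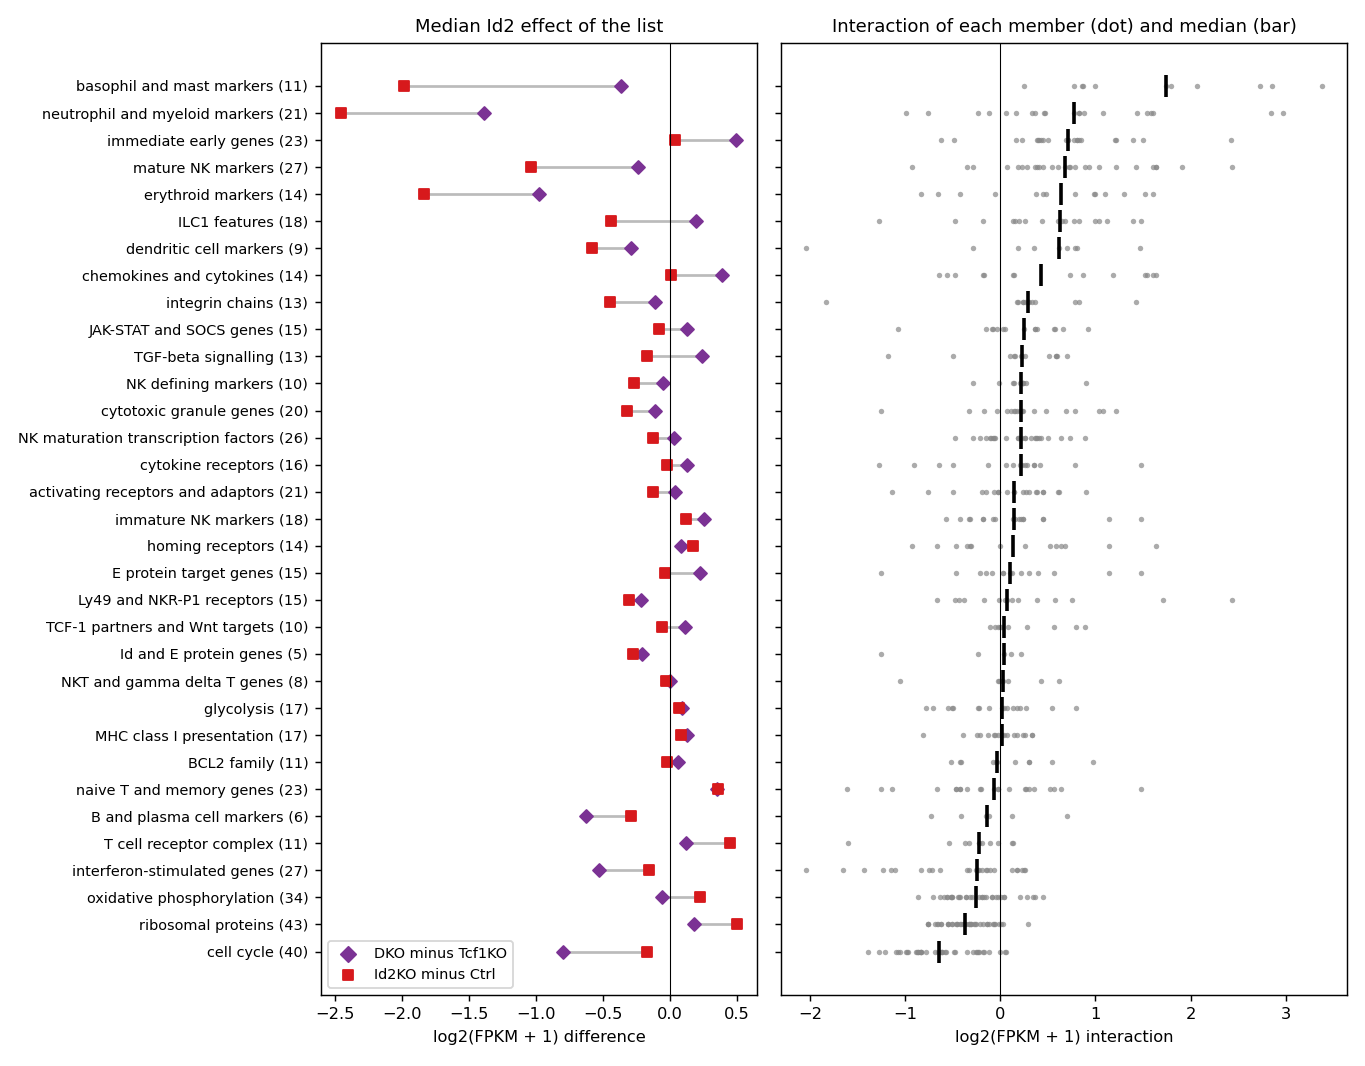
Left, the median Id2 difference of each gene list in DKO minus Tcf1KO (diamonds) and in Id2KO minus Ctrl (squares), in log2(FPKM + 1); right, the interaction of each tested member (dots) and the list median (bar), with the number of tested members in brackets. The medians run between -0.65 for cell cycle genes and 1.74 for basophil and mast cell markers.

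Markers of other bone marrow cells were read in the same way. Basophil and mast cell markers had the highest list median, 1.74, with 11 of 11 tested members positive. Of these, 1 had an unadjusted p under 0.05 (9.1%, against 5.94% of all genes). Neutrophil markers had a median of 0.77 (17 of 21 positive), with 1 at an unadjusted p under 0.05 (4.8%). Erythroid markers had a median of 0.64 (10 of 14 positive), with 0 at an unadjusted p under 0.05. Without single libraries these medians ran between -0.02 and 1.59 for neutrophil and between 0.05 and 1.52 for erythroid markers. The summed level of the basophil and mast cell markers was 59.9 to 627 FPKM in DKO, 54.5 to 789.8 FPKM in Tcf1KO, 17.7 to 109 FPKM in Id2KO and 171 to 651 FPKM in Ctrl, with at most 2 of 13 members at 0 in any library. The neutrophil markers summed to 367 to 888 FPKM in DKO, 1232 to 4441 FPKM in Tcf1KO, 82.0 to 1082 FPKM in Id2KO and 936 to 3711 FPKM in Ctrl, and the erythroid markers to 463 to 2761 FPKM in DKO, 1365 to 3610.0 FPKM in Tcf1KO, 181 to 1949 FPKM in Id2KO and 781 to 4870.0 FPKM in Ctrl. Elane, which defines early neutrophils, had 8.35, 6.61 and 0 FPKM in DKO, 44.7, 22.6 and 0.108 FPKM in Tcf1KO, 0 in all 3 Id2KO libraries, and 37.6, 37.9 and 4.40 FPKM in Ctrl. For the neutrophil sum DKO overlapped neither Tcf1KO nor Ctrl, and Id2KO overlapped DKO and Ctrl; for the basophil and mast cell sum Id2KO did not overlap Ctrl; the erythroid sums overlapped between all genotypes. In bulk RNA, fewer cells of a type and less RNA per cell cannot be told apart. With a score of these markers as a term in the fit, the list medians of the interaction were 0.60 for mature NK markers, -0.85 for cell cycle genes, -0.32 for ribosomal proteins and 0.49 for ILC1 features. They were -0.02 for neutrophil and -0.14 for erythroid markers. The score is made of the neutrophil, erythroid, basophil and mast cell markers themselves, so smaller medians of those lists follow from its construction. The part of other cells in the remaining lists was not tested. The median of the basophil and mast cell markers was 0.77 with the score and 0.52 without Tcf1KO library 3.

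**Figure D4:**
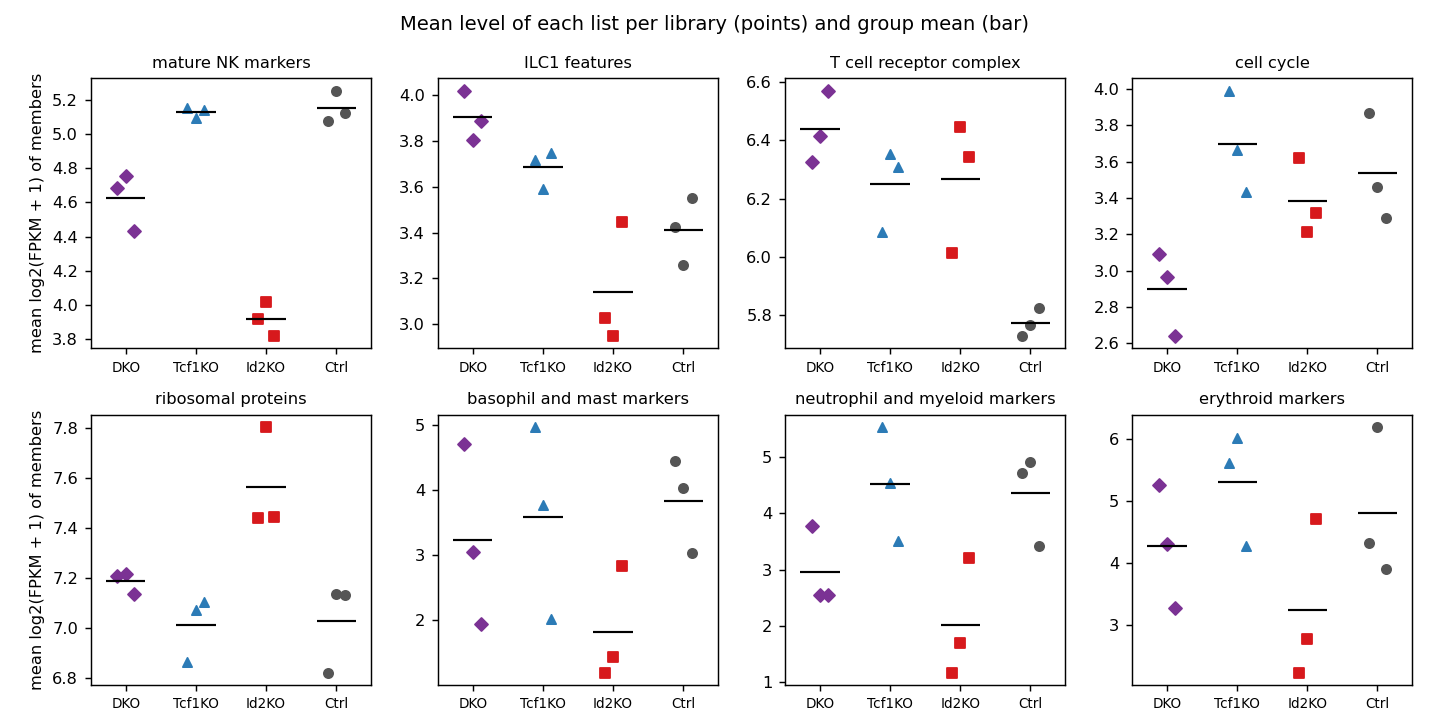
Mean log2(FPKM + 1) level of 8 gene lists in each library (points) with the group mean (bar), by genotype. Mature NK markers are lowest in Id2KO and cell cycle genes lowest in DKO, while the basophil, neutrophil and erythroid markers spread widely within each genotype.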

How the data were processed

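The deposited FPKM values, per the labels made from RNA of sorted bone marrow NK cells with a Nugen Ovation Ultralow kit on a NextSeq500, were taken as the authors gave them. Trimmomatic 0.33, TopHat2 2.1.0, HTSeq 0.6.1 and edgeR appear in the submitters' processing notes, with the genome mm10; whether counting used strand is not given in the sources used here. GENCODE M21 (GRCm38) matched 32938 of the gene IDs.

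All 12 libraries entered a single linear model of genotype, fitted with limma 3.58.1 in R 4.3.3 (eBayes with a variance trend) on log2(FPKM + 1), with Benjamini-Hochberg adjustment over the 12384 genes, contrast by contrast, and called at 0.05. The pseudocount of 1 understates changes of low genes. All 23707 genes above 0 gave whole reads within 0.001 reads (100% of values), used for the voom alternative and for depth. The script was tested on simulated data. Figures were drawn with Python 3.11.15 and matplotlib 3.10.9.

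Named genes were Id2, Tcf7, Klrb1b, Itgam, Nsg2 and Cd3d, the 12 genes with the smallest interaction p in each direction, and up to 3 members of each of 34 lists. Predicted genes, pseudogenes and receptor segments were passed over. Genes called in either Id2 comparison, Ncr1, Elane and the exceptions within a list were named after their values were seen. The contrast, members, lists and alternatives were chosen with earlier results of these data known. The alternatives were other pseudocounts, filters, scalings, variance models and thresholds, voom, the replicate number as a block, Xist or a score of other-lineage markers as a term, and fits without single libraries or the 3 of lowest weight.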

Additional observations from a re-analysis of the deposited data

How the results depend on the processing

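The interaction kept 0 called genes under most alternatives. Without the variance trend 1 was called (Sult5a1, lower, adjusted p = 0.0334). Without single libraries the count was 0 to 1, the 1 being the predicted gene Gm23613, higher, without DKO library 1 (adjusted p = 0.0167, against 0.085 with all libraries). Sult5a1 reached an FPKM of 1 only in Id2KO and Gm23613 only in DKO. Each thus entered the test only through the genotype where it was high. Of 2036 values of 76 genes followed, 2031 kept direction and side of the threshold, 2 passed it and 3 turned round. Klrg1 was -8.50 on the linear FPKM scale, and Apobec2, near 0 in the fit, was -0.46 with a pseudocount of 0.1 and -1.19 by voom. The 76 were the targeted and marker genes, those of smallest interaction p or called between groups, and list members with an unadjusted interaction p under 0.05. That choice favours a kept direction, and the other named genes were not followed. Counts of called genes moved more, and the cause was not tested. DKO against Tcf1KO gave 4 (FPKM filter of 5, no filter, or pseudocount 0.1), 2 (voom, or without the 3 libraries of lowest weight), 0 (threshold 0.01) and 0 to 7 without single libraries, against 7. Id2KO against Ctrl gave 11 (other-lineage score), 8 (without the 3 libraries), 10 (threshold 0.01) and 13 to 27 without single libraries, against 22. DKO against Id2KO gave 8 (FPKM filter of 5), 3 (threshold 0.01) and, without single libraries, 2 (Id2KO library 2) to 31 (Id2KO library 3), against 15. Tcf1KO against Ctrl gave 7 (array weights), 4 (voom, or without the 3 libraries), 1 (no filter) and 0 to 3 without single libraries, against 0.

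With the replicate number as a block, DKO against Tcf1KO gave 15 calls in place of 7. Deviations of same-numbered libraries correlated at -0.14 to 0.27 over all genotypes. Not every library correlated best with its own number, but each DKO library did so among the Tcf1KO libraries (0.200, 0.084 and 0.272). Library 1 was also the library with low Xist in both DKO and Tcf1KO. The labels give no shared source, and whether the numbers mark one in that comparison was not tested.

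Scalings moved the median interaction of all genes by less than 0.1. Several list medians changed size without single libraries. Some also changed sign, among them those of the BCL2 family, immature NK markers and homing receptors. Over all alternatives, the median of B and plasma cell markers ran between -0.61 and 0.22.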
